A study of Mus musculus with 4 samples.

Results

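The chemokine receptors Cxcr4, Cxcr2, Cxcr3, Cxcr5, Ccr1, Ccr2, Ccr7, Ccr9 and Cx3cr1 were followed in bone marrow mononuclear cells of TLR9-/- and wild-type (WT) mice. They are 9 of the 31053 genes in the count matrices, where they were found by their symbols. The cells were profiled one by one from the 5′ end of their transcripts. The paper's single-cell methods do not describe how they were prepared. Elsewhere its methods obtain such cells by flushing femur and tibia and a Ficoll gradient. In the osteoclast assay the gradient follows overnight culture with the growth factor M-CSF. There were 2 TLR9-/- libraries and 2 WT libraries, 1 mouse each, numbered 1 and 2 within a genotype. By the study's methods the mice were processed in 2 experiments, each with 1 mouse of either genotype, and the labels do not tie the library numbers to an experiment. All mice were C57BL/6, and no treatment was given in the labels. The genotypes were kept in different breeding cages, so genotype and cage cannot be told apart. Toll-like receptor 9 senses unmethylated DNA inside dendritic cells, B cells and macrophages. The age and sex of these mice are not given in the sources used here.

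Chemokine receptors couple to inhibitory G proteins and steer leukocytes along gradients of small secreted proteins. In marrow, stromal cells secrete CXCL12, whose receptor CXCR4 holds hematopoietic precursors, developing B cells and neutrophils in place. Mature cells leave through receptors that answer ligands outside the niche, such as CXCR2 on neutrophils and CCR2 on monocytes, while CCR7, CXCR5, CXCR3 and CCR9 direct lymphocytes and plasmacytoid dendritic cells to lymph nodes, follicles, inflamed tissue and the gut.

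The retention receptor Cxcr4 and the neutrophil exit receptor Cxcr2 lie on the same chromosome and differ in the bases before their start sites. These are printed because both transcripts are followed along the same stages below. Sequences are from RefSeq (GRCm38.p6), 5′ to 3′ on the strand of the gene, and hold the 250 bases before the start. Capitals mark matches on either strand to any of 4 motifs. The first is the GC box that Sp1-family proteins bind, written GGGCGG. The second is the core of the TATA box at which the basal transcription machinery assembles, written TATAAA. The third, written TTGCNNAA, resembles the sites of C/EBP proteins, which act in granulocytes. The fourth resembles the sites of ETS proteins such as PU.1 and was written GAGGAAG.
Cxcr4, chr1:128592300-128592549, minus strand: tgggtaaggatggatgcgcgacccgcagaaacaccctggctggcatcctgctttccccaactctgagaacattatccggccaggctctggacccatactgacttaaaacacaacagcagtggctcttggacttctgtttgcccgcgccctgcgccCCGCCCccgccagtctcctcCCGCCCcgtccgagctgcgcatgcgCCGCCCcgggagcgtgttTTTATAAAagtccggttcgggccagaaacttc
Cxcr2, chr1:74153744-74153993, plus strand: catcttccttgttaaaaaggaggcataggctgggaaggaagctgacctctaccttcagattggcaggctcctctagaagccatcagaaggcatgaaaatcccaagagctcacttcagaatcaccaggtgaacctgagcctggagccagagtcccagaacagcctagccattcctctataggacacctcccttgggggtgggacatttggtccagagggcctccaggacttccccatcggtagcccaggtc
The Cxcr4 stretch held 3 GC boxes and 2 overlapping matches to the TATA box, 1 on each strand. It was 61.2% G and C and held 19 CG dinucleotides. The Cxcr2 stretch held none of the 4 motifs, was 54.4% G and C and held 1 CG dinucleotide. Over 27025 promoters of the same length, the median was 52.0% G and C and 6 CG dinucleotides. Of these, 32.9% held a GC box, 13% a TATA box, 9.55% the C/EBP-like motif and 10.4% the ETS-like motif. A promoter was matched for 7 of the 9 receptors, and besides Cxcr4 only Cxcr3 held a match, 1 ETS-like motif.

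In the GRCm38 annotation all 9 are protein-coding genes. Cxcr4 (ENSMUSG00000045382) spans bases 128588199 to 128592293 of chromosome 1 and Cxcr2 (ENSMUSG00000026180) bases 74153989 to 74161246. Cxcr3 (ENSMUSG00000050232) lies on chromosome X from 101731535 to 101734269 and Ccr7 (ENSMUSG00000037944) on chromosome 11 from 99144196 to 99155077. The other 5 share chromosome 9 with Tlr9. Ccr1 (ENSMUSG00000025804, 123962124 to 123968692), Ccr2 (ENSMUSG00000049103, 124101950 to 124113557) and Ccr9 (ENSMUSG00000029530, 123678439 to 123784330) form a cluster between 17.5 and 17.9 megabases from Tlr9. Cx3cr1 (ENSMUSG00000052336, 119901616 to 120069879) lies 13.7 megabases and Cxcr5 (ENSMUSG00000047880, 44511787 to 44561877) 61.7 megabases from it.

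After the filters 39167 of 40545 cells remained, with 50204578 and 63958243 unique molecular identifiers (UMIs, each marking 1 captured molecule) in TLR9-/- mice against 31210188 and 41384657 in WT mice. Cells were clustered without the chemokine receptors and named after the marker genes that led each cluster, so that a name means cells resembling that type. The 5420 cells whose clusters met no rule stayed unnamed. A barcode found in more than 1 library was carried by 1667 cells (4.26%), and without these cells the number of receptors called was 0 in each kind of comparison, as with them. With them 0.268% of all genes were called in whole marrow, 0.294% of gene tests in lineages and 0.346% in stages. At such shares the count of 0 cannot show whether these cells mattered. Tlr9 had 41 and 48 UMIs in TLR9-/- mice against 120 and 97 in WT mice (log2 fold change −1.98, standard error 0.35, adjusted p = 0.117). It was lower in both TLR9-/- libraries and still detected there. The 15 T cell markers summed to between 5227 and 6066 CPM (the usual CPM scale of count data, here UMIs scaled to the same total in each library and cell type) in T cells and to between 19.8 and 34.1 CPM in B cells.

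Cxcr4 was the most often captured of the 9 receptors, with 24921 UMIs over the 4 libraries. Ccr2 had 19154, Cxcr2 3647, Cx3cr1 2999, Ccr1 2903, Ccr7 2673, Ccr9 2252, Cxcr3 1076 and Cxcr5 591. These totals reflect how many cells of each type were captured and do not rank the genes. Most receptors were held by 1 or 2 lineages. Averaged over libraries, B cells held 84.0% of the Cxcr5 UMIs and 72.5% of the Ccr7 UMIs, and neutrophils 67% of those of Cxcr2. Monocytes held 54.9% of the Ccr2 UMIs and 45.5% of the Cx3cr1 UMIs. Cxcr4 was spread over many: B cells held 26.8% of its UMIs, monocytes 16.4% and myeloid progenitors 16.2%. Unnamed cells held between 11.7% (Cxcr5) and 61.0% (Ccr9), so that for Ccr9 most of the signal lay outside the named types. Levels below are CPM, the UMIs of a gene as a share of all UMIs of the cells of a type in 1 library. Each gene is compared only with itself, apart from the ratio of Ccr1 to Cxcr2, which is compared between cell types.

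**Figure D1:**
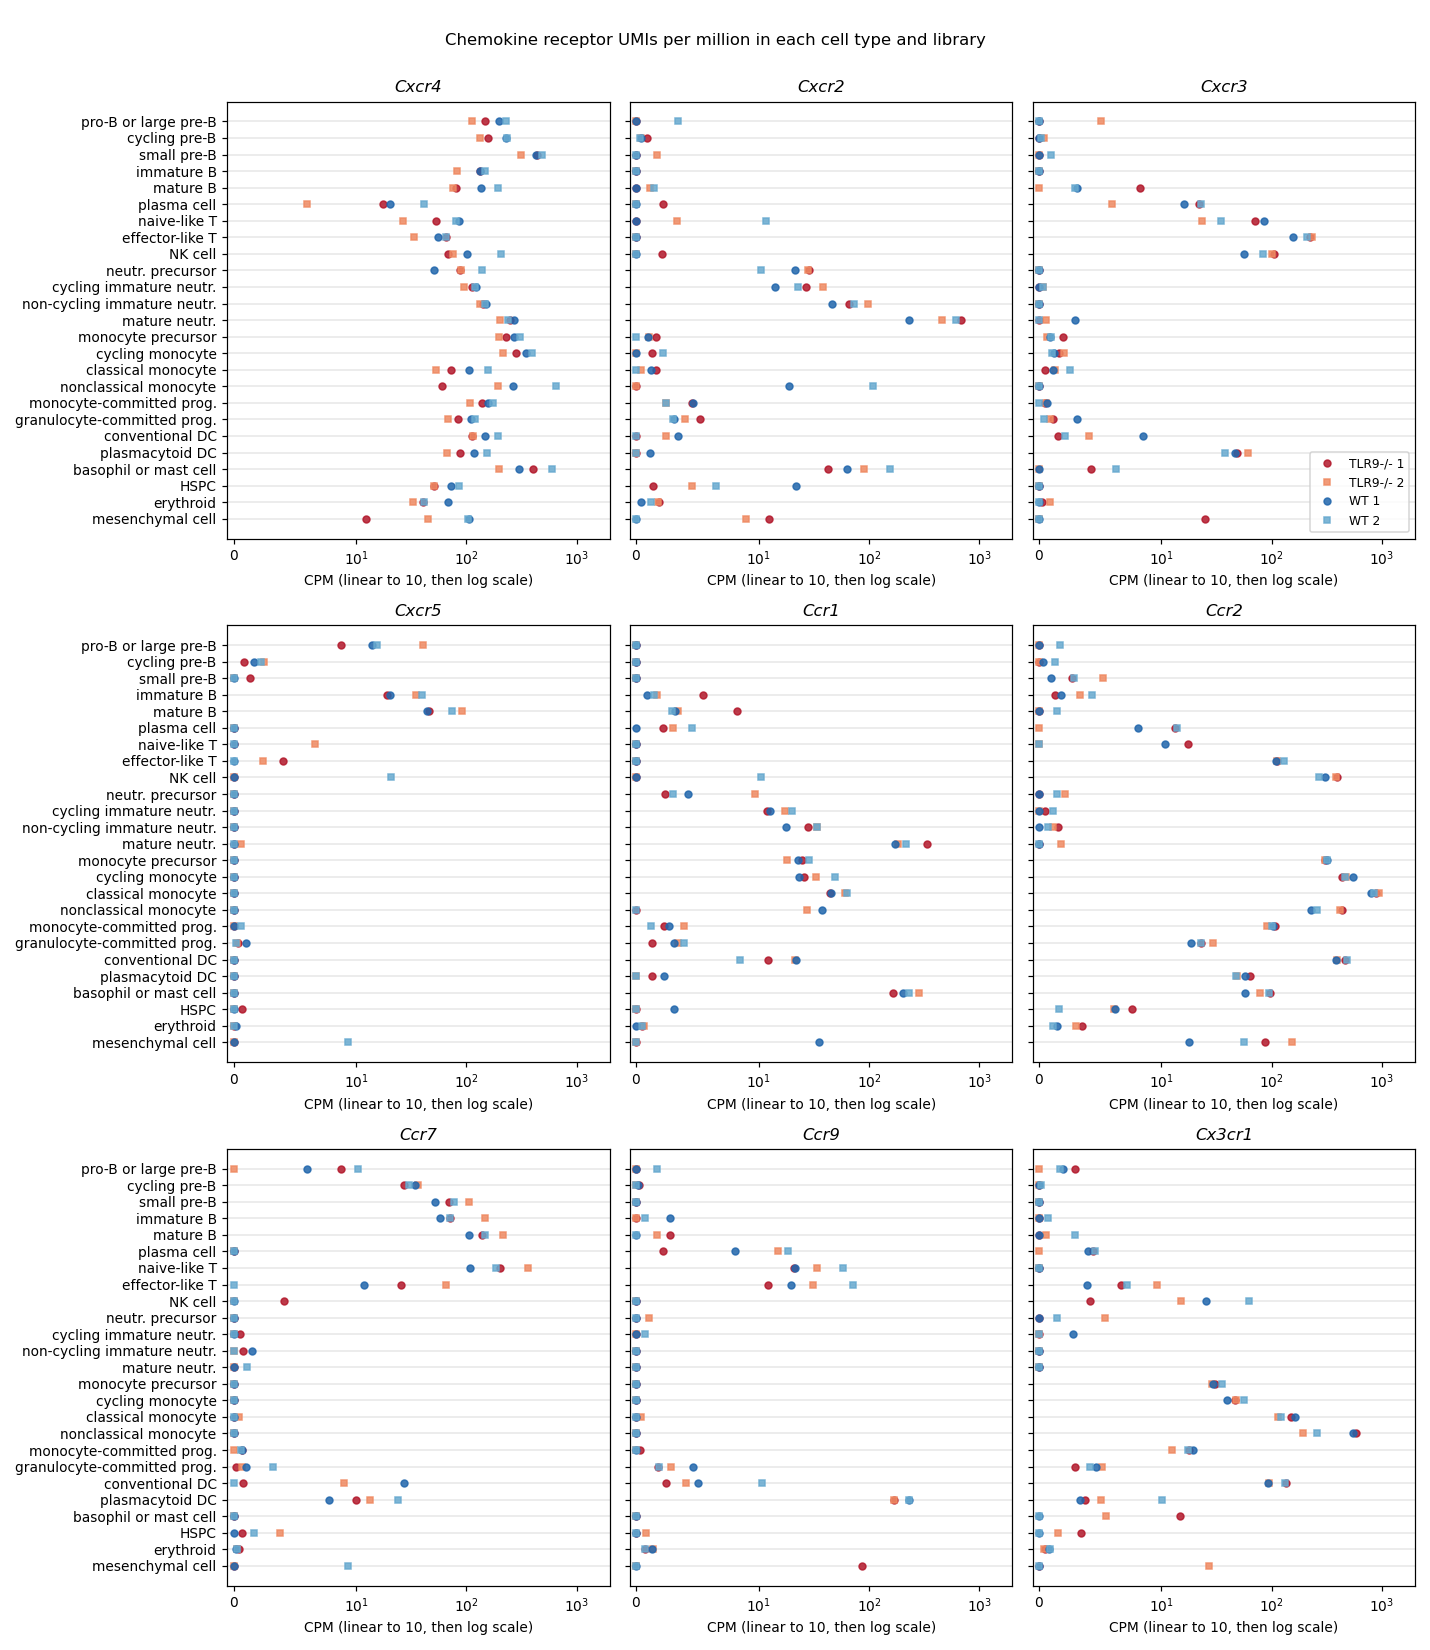
CPM of each receptor (horizontal axis, linear to 10 and logarithmic above) in 25 cell types (rows) and 4 libraries (points, red and orange TLR9-/-, dark and light blue WT). Cxcr4 was found in every type, from 21.3 CPM in plasma cells to 416 CPM in small pre-B cells, while Cxcr2, Cxcr5, Ccr9 and Cx3cr1 were high in only a few.

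Along the B lineage Cxcr4 peaked in small pre-B cells, the resting stage that rearranges the light chain. Its level there was 441 and 314 CPM in TLR9-/- mice against 431 and 481 CPM in WT mice (416 ± 71.9, SD, n = 4). Cycling pre-B cells, the dividing stage before, had 157 and 133 CPM against 231 and 233 CPM. Immature B cells, the stage after, had 133 and 81.7 CPM against 132 and 148 CPM. The level in small pre-B cells was 2.21 times that in cycling pre-B cells and 3.37 times that in immature B cells, in the same order in all 4 libraries and without overlap. Mature B cells had 81.3 and 76.0 CPM in TLR9-/- mice against 136 and 194 CPM in WT mice. They were below immature B cells in both TLR9-/- libraries and above them in both WT libraries. With stages drawn at a finer resolution they were below immature B cells in 0 libraries, so this order depends on where the stages are cut. A Cxcr4 UMI was seen in 34.0% of small pre-B cells. After thinning each cell to 1000 UMIs it was seen in 31.7% (24.8% to 35.4% over libraries). Thinning left out 559, 53, 933 and 257 small pre-B cells of TLR9-/- 1, TLR9-/- 2, WT 1 and WT 2 that were shallower. Erythroid cells gave 23.9% before thinning and 6.99% after it (6.26% to 8.53%). Whether this Cxcr4 was RNA free in the suspension or the cells' own was not tested. The median depth, as the median of the 4 libraries, was 1024 UMIs in small pre-B cells (826 to 1388.5) and 5264 UMIs in erythroid cells (1962 to 9418). Erythroid cells had 45.5 ± 15.5 CPM of Cxcr4, whereas the other 8 receptors had between 0.0534 (Cxcr5) and 2.31 CPM (Ccr2) there.

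In monocytes Cxcr4 was higher in dividing cells than in committed progenitors and lower in classical monocytes, the Ly6C-high cells that enter blood. Cycling monocytes had 281 and 214 CPM in TLR9-/- mice against 344 and 392 CPM in WT mice. Classical monocytes had 72.8 and 52.8 CPM against 105 and 157 CPM. The ratio of cycling to classical monocytes was 3.18, with 2.5 to 4.05 over libraries. Nonclassical monocytes, which patrol vessels, had few Cxcr4 UMIs, 3 and 7 against 14 and 18 (59.7 and 193 CPM against 263 and 656 CPM). In WT 2 these cells also carried 38820 CPM of neutrophil markers, against 2049 to 2967 CPM in the other libraries. The part of neutrophil RNA in this value was not tested.

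In neutrophils the highest Cxcr4 level was that of the mature cells. Cycling immature neutrophils had 113 and 96.0 CPM in TLR9-/- mice against 123 and 120 CPM in WT mice. Mature neutrophils had 251 and 203 CPM against 272 and 239 CPM. The ratio was 2.14 and lay between 1.99 and 2.23 in every library. Basophils or mast cells were second in the order of Cxcr4 levels, with 376 ± 172 CPM (SD, n = 4). Conventional dendritic cells had 142 ± 37.6 CPM, natural killer (NK) cells 113 ± 64.5 CPM and hematopoietic stem and progenitor cells 65.2 ± 17.3 CPM. Plasma cells were lowest, with 21.3 ± 14.7 CPM from 24 UMIs. All 24 pairs of neighbours in the order of Cxcr4 levels overlapped between libraries, so no step in it exceeded the spread.

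**Figure D2:**
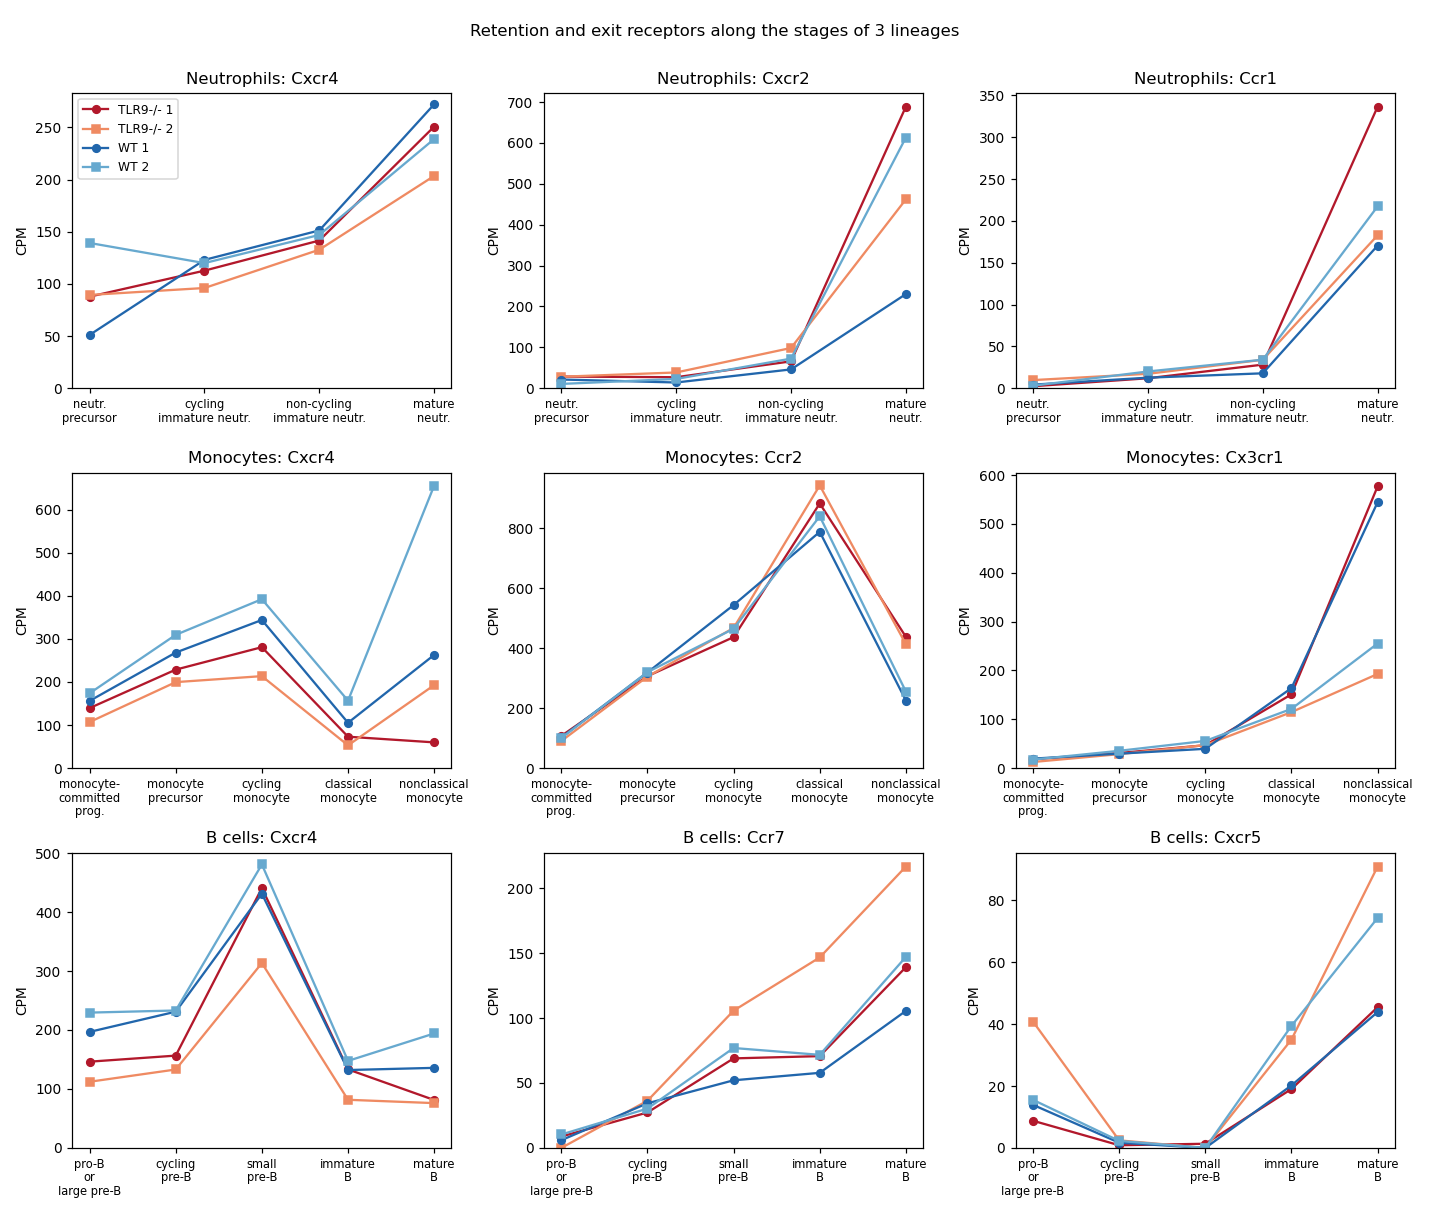
CPM of 3 receptors along the stages of neutrophils (top), monocytes (middle) and B cells (bottom), 1 line per library. Cxcr2 and Ccr1 are highest at the last neutrophil stage, Ccr2 peaks in classical monocytes at 863 CPM, and Cxcr4 peaks in small pre-B cells, is lower in classical than in cycling monocytes and has its neutrophil maximum in mature cells.

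Cxcr2, the receptor that draws neutrophils out of the marrow toward CXCL1 and CXCL2, marked the last neutrophil stage. Mature neutrophils had 689 and 462 CPM in TLR9-/- mice against 230 and 613 CPM in WT mice. Non-cycling immature neutrophils had 65.7 and 98.4 CPM against 46.0 and 72.4 CPM, and cycling immature neutrophils 26.9 and 38.5 CPM against 14.0 and 22.6 CPM. The level in mature neutrophils was 19.6 times that in cycling ones, with 12 to 27.1 over libraries. WT 1 was the low library at each of these 3 stages. A Cxcr2 UMI was seen in 51.7% of mature neutrophils and in 35.8% after thinning to 1000 UMIs (15.8% to 44.8%), which left out 442 and 96 shallower cells of the TLR9-/- and 124 and 238 of the WT libraries. In erythroid cells it was seen in 0.693% before and 0.125% after thinning, and the median depths were 1101 and 5264 UMIs. Mature neutrophils comprised 3 subclusters. The largest (1427 cells), led by Wfdc17, Ifitm1 and Il1b, had 707 ± 170 CPM of Cxcr2. A second (832 cells), led by Retnlg and Ccl6, had 287 ± 112 CPM (SD, n = 4). The libraries of the pair did not overlap in Cxcr2. Cxcr4 was 250 ± 55.7 and 252 ± 47.3 CPM in them and overlapped.

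Ccr1, a receptor for CCL3, CCL5 and, in mice, CCL6 and CCL9, shared the neutrophil pattern. It had 336 and 183 CPM in mature neutrophils of the TLR9-/- libraries and 170 and 217 CPM in those of the WT libraries, 14.7 times the level in cycling immature neutrophils (10.6 to 28.3 over libraries). Basophils or mast cells overlapped with them, with 165 and 283 CPM against 202 and 232 CPM, and the next type in order, classical monocytes, had 53.3 ± 9.89 CPM. Basophils or mast cells also held Cxcr2 at 87.8 ± 49.8 CPM. Their Ccr1 UMIs were 1.48 to 3.90 times their Cxcr2 UMIs, against 0.354 to 0.740 times in mature neutrophils, so the ratio of these receptors did not overlap between the types. The 22 neutrophil markers summed to between 798 and 1984 CPM in basophils or mast cells and to between 376284 and 490428 CPM in mature neutrophils. The part of neutrophil RNA in the receptor levels of basophils or mast cells was not tested.

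Ccr2, the receptor for CCL2 through which monocytes leave the marrow, was higher at each stage up to classical monocytes. Monocyte-committed progenitors had 107 and 90.2 CPM in TLR9-/- mice against 102 and 100 CPM in WT mice. Monocyte precursors had 306 and 305 CPM against 319 and 320 CPM, and cycling monocytes 437 and 467 CPM against 544 and 465 CPM. Classical monocytes had 883 and 943 CPM against 788 and 840 CPM, 8.65 times the level of the committed progenitors (7.72 to 10.5 over libraries). Each of these 3 steps held in all 4 libraries without overlap, and so did the step down to nonclassical monocytes (333 ± 108 CPM). Outside monocytes, Ccr2 reached 430 ± 52.0 CPM in conventional dendritic cells, 336 ± 58.5 CPM in NK cells and 116 ± 9.57 CPM in effector-like T cells. In naive-like T cells it had 5 and 0 UMIs in TLR9-/- mice against 1 and 0 in WT mice. For the libraries with 0 UMIs this allows up to 10.0 and 34.9 CPM, from counting error only.

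Cx3cr1, the fractalkine receptor that marks patrolling monocytes, was highest at the end of the monocyte series. Nonclassical monocytes had 577 and 193 CPM in TLR9-/- mice against 545 and 255 CPM in WT mice, from 29, 7, 29 and 7 UMIs. Classical monocytes had 151 and 115 CPM against 164 and 121 CPM, and monocyte precursors 30.8 and 28.5 CPM against 29.5 and 35.3 CPM. The ratio of nonclassical to classical monocytes was 2.85 (1.68 to 3.82 over libraries) and that of classical monocytes to precursors 4.44 (3.43 to 5.55). Libraries numbered 1 were above those numbered 2 of the same genotype in both monocyte types. Conventional dendritic cells had 114 ± 22.8 CPM, a level that overlapped with classical monocytes.

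Ccr7, which guides naive T cells, mature B cells and migrating dendritic cells to lymph nodes, separated naive-like from effector-like T cells. Naive-like T cells had 203 and 361 CPM in TLR9-/- mice against 107 and 186 CPM in WT mice. Effector-like T cells had 25.5 and 65.1 CPM against 11.8 and 0 CPM, where 0 UMIs in WT 2 allow up to 21.7 CPM. In B cells Ccr7 was higher at later stages, from 32.1 ± 4.05 CPM in cycling pre-B cells over 75.9 ± 22.4 CPM in small pre-B cells to 152 ± 46.6 CPM in mature B cells. Mature B cells had 139 and 217 CPM against 105 and 147 CPM, 4.74 times the level of cycling pre-B cells (3.07 to 5.96).

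Cxcr5, the receptor that brings B cells into follicles, was highest in mature B cells and lowest at the pre-B stages that follow pro-B or large pre-B cells. Pro-B or large pre-B cells had 8.78 and 40.8 CPM in TLR9-/- mice against 13.9 and 15.5 CPM in WT mice, from 3, 8, 7 and 9 UMIs. Cycling pre-B cells had 0.866 and 2.45 CPM in TLR9-/- mice against 1.69 and 2.27 CPM in WT mice, and small pre-B cells had 1, 0, 0 and 0 UMIs. Immature B cells had 19.0 and 35.0 CPM against 20.2 and 39.4 CPM, and mature B cells 45.5 and 90.9 CPM against 43.9 and 74.3 CPM. The ratio of mature B to cycling pre-B cells was 35.0 (26.0 to 52.5 over libraries). Pro-B or large pre-B cells overlapped with immature B cells.

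Cxcr3, the receptor for the interferon-induced ligands CXCL9 and CXCL10, was highest in effector-like T cells, with 223 and 234 CPM in TLR9-/- mice against 157 and 210 CPM in WT mice. Naive-like T cells had 53.6 ± 29.3 CPM, NK cells 86.4 ± 22.6 CPM and plasmacytoid dendritic cells 48.5 ± 9.52 CPM. Effector-like T cells did not overlap with any of these. NK cells and naive-like T cells overlapped, so their order is not resolved.

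Ccr9, the receptor for the gut and thymus chemokine CCL25, was highest in plasmacytoid dendritic cells, the interferon-producing cells that express it at maturity. They had 170 and 169 CPM in TLR9-/- mice against 233 and 231 CPM in WT mice. T cells came next with 33.8 ± 26.8 CPM in effector-like and 33.5 ± 17.4 CPM in naive-like cells. Of the cells left unnamed, 665 had clustered with plasmacytoid dendritic cells and were led by Cd209d, Klk1 and H2-Eb1. Klk1 was among the markers used to name plasmacytoid dendritic cells and H2-Eb1 among those for conventional dendritic cells. These 665 cells had 374 and 396 CPM of Ccr9 in TLR9-/- mice against 403 and 535 CPM in WT mice, above the named cells in every library.

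Over the neutrophil, monocyte, B and T series, 42 steps between neighbouring stages were described for the receptors each lineage uses. In 34 of them all 4 libraries moved the same way, and in 28 the 2 stages did not overlap. All 4 libraries shared the order in 29 steps when shares of cells thinned to 1000 UMIs were used and in 33 when the stages were drawn at a finer resolution. The stages were drawn from the same cells, so these are descriptions and were not tested. How often other genes did the same over these steps was not counted, so the counts do not set the receptors apart from other genes.

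The comparison of TLR9-/- with WT libraries asked whether the receptors differed within the same cell type or stage. UMIs of all cells of a type were added up within each library. The 2 libraries of each genotype entered edgeR's quasi-likelihood test, with p-values adjusted over all genes tested by the Benjamini-Hochberg method. At an adjusted p under 0.05, 0 of 9 receptors were called in whole marrow, where 0.268% of all genes were called. The same test called 0 in 42 tests over lineages (0.294% of all gene tests called) and 0 in 58 tests over stages (0.346%). Unadjusted p was under 0.05 in 2, 12 and 12 of these tests, or 22.2%, 28.6% and 20.7%, beside 17.1%, 6.71% and 6.59% of all genes. Cxcr4 alone gave 7 of the 12 in lineages. A receptor was tested again in many cell types of the same mice, so these tests are not independent. DESeq2 called 1 receptor in whole marrow, Ccr2, and 0 in lineages and stages, where it called 3.87%, 0.194% and 0.130% of all gene tests. None of these tests had a term for the experiment. With 2 libraries against 2, an exact permutation test of 1 value cannot give a p below 0.333.

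Cxcr4 was lower in both TLR9-/- libraries in most cell types, without passing the threshold. In whole marrow it had 132 and 98 CPM in TLR9-/- mice against 165 and 166 CPM in WT mice (log2 fold change −0.53, standard error 0.18, adjusted p = 0.247). Of all genes tested in whole marrow, 25.9% were lower in both TLR9-/- libraries and 25.1% were higher in both. In bulk sums such as this, fewer cells of a type and less RNA per cell cannot be told apart. With each cell type's share of all UMIs held at its mean over the 4 libraries, Cxcr4 was 128 and 102 CPM against 158 and 172 CPM, and the log2 ratio stayed at −0.52. Among the 23 cell types in which it was tested (stages, and lineages without stages), the fold change was below 0 in 23, with a median of −0.63 on the log2 scale, and leaving out 1 library turned the direction in effector-like T cells and in 3 of the 4 neutrophil stages (precursors, non-cycling immature and mature cells). Both TLR9-/- libraries were below both WT libraries in 17 of these, where 16.2% of all gene tests in the same types were. Unadjusted p was under 0.05 in 13 of the 23, beside 3.25% (mature neutrophils) to 10.5% (cycling pre-B cells) of all genes by cell type. Adjusted p was between 0.144 and 1.00. All 23 cell types come from the same 4 libraries, so these comparisons are not independent.

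The difference in Cxcr4 was measured in lymphoid, myeloid and stem cell compartments, with sizes that varied. Mature B cells had 81.3 and 76.0 CPM against 136 and 194 CPM (log2 fold change −1.11, standard error 0.24, adjusted p = 0.218). In cycling pre-B cells, at the levels given above, TLR9-/- over WT gave −0.68 on the log2 scale (standard error 0.17, adjusted p = 0.144), the lowest adjusted p of the 109 receptor tests. In small pre-B cells, where the level peaks, TLR9-/- 1 lay within the WT range (−0.32, standard error 0.22, adjusted p = 0.926). Classical monocytes had 72.8 and 52.8 CPM against 105 and 157 CPM (−1.04, standard error 0.26, adjusted p = 0.260). Granulocyte-committed progenitors had 83.9 and 67.8 CPM against 110 and 121 CPM (−0.65, standard error 0.18, adjusted p = 0.284). Plasmacytoid dendritic cells had 86.7 and 66.5 CPM against 117 and 153 CPM (−0.84, standard error 0.24, adjusted p = 0.545). Hematopoietic stem and progenitor cells had 51.1 and 51.1 CPM against 71.9 and 86.6 CPM (−0.66, standard error 0.25, adjusted p = 0.475). None of these passed the threshold in this test. When every gene with at least 1 UMI was tested, cycling pre-B cells, mature B cells and classical monocytes did (adjusted p = 0.0166, 0.00430 and 0.00927), and 0.622% of all gene tests in stages were called. Without WT 1 the fold change in mature B cells was −1.31, and without TLR9-/- 1 that in classical monocytes was −1.31. Without WT 2 that in cycling pre-B cells was −0.70, and without TLR9-/- 2 that in nonclassical monocytes was −2.87. Each of these fits leaves 1 mouse in a genotype, so no call is read from it. In the other cell types of this paragraph TLR9-/- 2 was the lowest library or level with the lowest.

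**Figure D3:**
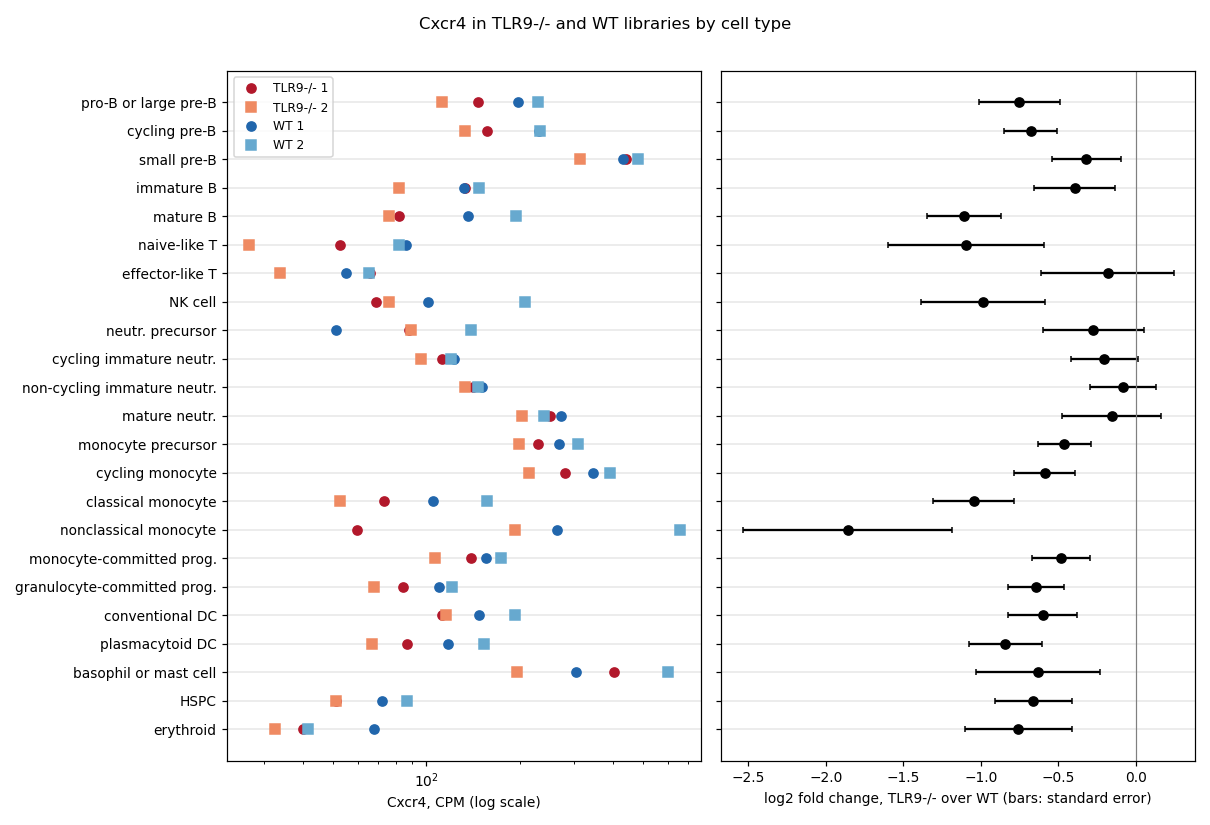
Left, Cxcr4 CPM (log axis) in 23 cell types and 4 libraries, and right, the log2 fold change of TLR9-/- over WT with its standard error from edgeR. All 23 fold changes lie below 0, from −1.86 in nonclassical monocytes to −0.08 in non-cycling immature neutrophils, and the 4 neutrophil stages lie between −0.28 and −0.08.

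Neutrophils had the smallest Cxcr4 difference of the lineages. Their level was 139 and 130 CPM in TLR9-/- mice against 150 and 148 CPM in WT mice (log2 fold change −0.11, standard error 0.23, adjusted p = 0.988). The difference between lineages was tested in 1 fit over B cells, monocytes and neutrophils. The fold change in neutrophils exceeded that in B cells by 0.64 on the log2 scale (standard error 0.17, adjusted p = 0.119). The fold change in monocytes minus that in neutrophils was −0.52 (standard error 0.17, adjusted p = 0.367). Without TLR9-/- 1, which leaves 1 TLR9-/- mouse, these 2 differences were 0.83 and −0.66. The fold change in monocytes minus that in B cells was 0.12 (standard error 0.17, adjusted p = 1.00). No receptor passed the threshold of edgeR's test for such differences, with 0 calls in 21 tests, where 0.22% to 0.356% of all genes were called. Unadjusted p was under 0.05 in 4 of these tests, beside 6.34% of all gene tests. DESeq2 called 0 receptors for these differences, where it called 0.144% of all gene tests.

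Cxcr4 in erythroid cells, where 45.5 CPM was measured, had 40.0 and 32.5 CPM in TLR9-/- mice against 67.9 and 41.5 CPM in WT mice (log2 fold change −0.76, standard error 0.35, adjusted p = 0.805). The direction there was that of leukocytes. Erythroid cells were not split into stages. Their 18 markers summed to 107773 and 32372 CPM in TLR9-/- mice against 201901 and 45301 CPM in WT mice. The part of this makeup in the Cxcr4 difference was not tested. Without WT 1 the fold change in erythroid cells was −0.21, and without WT 2 it was −1.17, with 1 WT mouse left in either fit. The part of RNA free in the suspension in the differences of other types was not tested.

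Ccr2 was the receptor with the lowest adjusted p in whole marrow. It had 131 and 114 CPM in TLR9-/- mice against 86.6 and 62.4 CPM in WT mice (log2 fold change 0.71, standard error 0.20, adjusted p = 0.195). DESeq2 gave 0.73 (adjusted p = 0.0271) and called 3.87% of all genes there. With the cell makeup held, the values were 104 and 102 CPM against 95.1 and 91.5 CPM, and the log2 ratio was 0.15 in place of 0.72. Within monocytes Ccr2 was 509 and 548 CPM against 526 and 515 CPM (0.03, standard error 0.16, adjusted p = 0.986). Monocytes numbered 1283 and 1185 of 10781 and 8918 cells in the TLR9-/- and 676 and 555 of 10573 and 8895 cells in the WT libraries. Over 12 cell types tested, Ccr2 was higher in both TLR9-/- libraries in 5 and lower in both in 1, where 20.9% and 15.7% of all gene tests were.

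**Figure D4:**
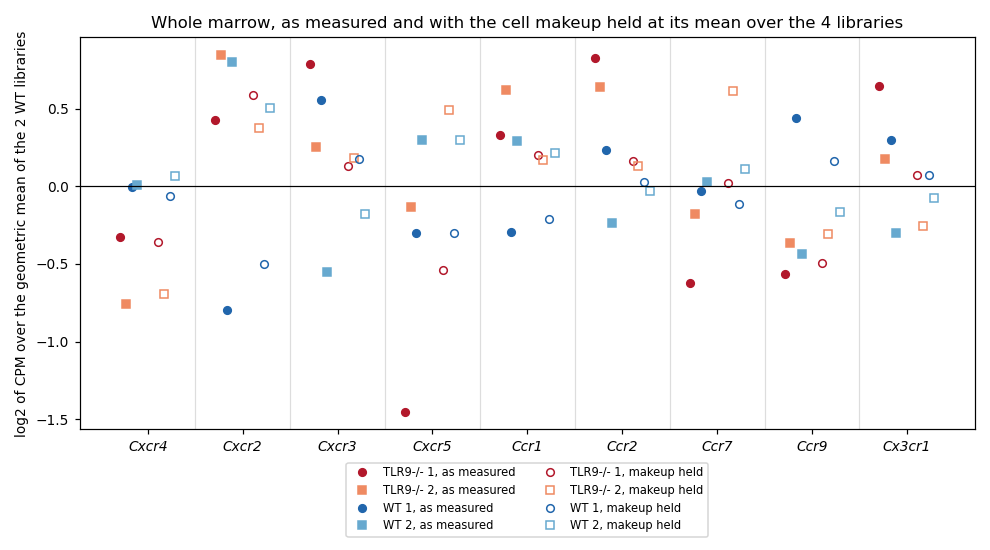
Level of each receptor in whole marrow in each library, as the log2 of its CPM over the geometric mean of the 2 WT libraries, as measured (filled) and with each cell type's share of all UMIs held at its mean over the 4 libraries (open). Ccr2 moves from 0.72 to 0.15 between genotypes when the makeup is held, while Cxcr4 stays at −0.52.

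The same step turned the direction of other receptors. Ccr7 in whole marrow was 10.7 and 14.6 CPM against 16.2 and 16.9 CPM, a log2 ratio of −0.39 that became 0.34 with the makeup held. It then overlapped between genotypes (13.4 and 20.2 CPM against 12.2 and 14.3 CPM). Cxcr5 went from −0.68 to 0.04 and Cx3cr1 from 0.40 to −0.08. Both also overlapped with the makeup held (2.13 and 4.38 CPM against 2.52 and 3.82 CPM, and 17.2 and 13.7 CPM against 17.2 and 15.5 CPM). Ccr1 went from 0.45 to 0.17 and Cxcr3 from 0.44 to 0.15, and with the makeup held both overlapped between genotypes (16.0 and 15.7 CPM against 12.1 and 16.2 CPM, and 5.93 and 6.16 CPM against 6.13 and 4.80 CPM). Cxcr2 gave 0.40 after 0.44, from 22.0 and 19.0 CPM against 10.3 and 20.7 CPM, where the genotypes overlapped and WT 1 was low. Ccr9 gave −0.41 after −0.53, from 10.2 and 11.7 CPM against 16.1 and 12.8 CPM. Unnamed cells, which held most of the Ccr9 UMIs, entered as a single part whose own makeup was not held. No test was made on these adjusted values.

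Within cell types, Ccr7 had the widest fold change of the lymphoid receptors. T cells had 74.7 and 189 CPM in TLR9-/- mice against 37.4 and 71.3 CPM in WT mice (log2 fold change 1.28, standard error 0.46, adjusted p = 0.877). Naive-like T cells had 203 and 361 CPM against 107 and 186 CPM (0.94, standard error 0.41, adjusted p = 0.752). TLR9-/- 2 was the highest library in both. It was also highest in immature and mature B cells, where the genotypes overlapped, and without it the fold change in B cells went from 0.63 to −0.09. Without TLR9-/- 1, which leaves 1 TLR9-/- mouse, the Ccr7 fold change was 1.85 in T cells and 1.12 in B cells. Both TLR9-/- libraries were above both WT libraries in 1 of 6 cell types tested, where 20.5% of all gene tests were. Among T cells, naive-like cells were 154 of 530 and 118 of 265 in the TLR9-/- and 49 of 190 and 35 of 101 in the WT libraries. Mature B cells, where Ccr7 was highest among B cell stages, were 506 of 3128 and 998 of 2154 B cells in the TLR9-/- libraries. In the WT libraries they were 832 of 4966 and 948 of 4173. The part of this makeup in the fold changes over all B cells was not tested.

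Cxcr2 in neutrophils was 136 and 148 CPM in TLR9-/- mice against 62.8 and 131 CPM in WT mice (log2 fold change 0.60, standard error 0.25, adjusted p = 0.646). WT 1 was low, and without it the fold change was 0.27. Cycling immature neutrophils had 26.9 and 38.5 CPM against 14.0 and 22.6 CPM (0.73, standard error 0.28, adjusted p = 0.573). In mature neutrophils the genotypes overlapped (0.48, standard error 0.41, adjusted p = 1.00). Both TLR9-/- libraries were above both WT libraries in 4 of 8 cell types tested, where 20.5% of all gene tests were. Ccr1 in neutrophils was 63.8 and 57.3 CPM against 40.3 and 53.9 CPM (0.39, standard error 0.22, adjusted p = 0.845). At the level of stages and lineages without stages, Ccr1 overlapped between genotypes in 10 of 10 cell types tested, where 16.7% of all gene tests were lower and 19.4% higher in both TLR9-/- libraries. Over lineages, Ccr1 was higher in both TLR9-/- libraries in 2 of 6 tested, where 19.7% of all gene tests were. Its log2 fold changes there reached 1.34, in B cells, with adjusted p from 0.845. Its fold change in monocytes minus that in neutrophils was −0.63 (standard error 0.20, adjusted p = 0.328). That in monocytes minus that in B cells was −1.50 (standard error 0.54, adjusted p = 0.659). The 22 neutrophil markers summed to 377 and 407 CPM in B cells of TLR9-/- mice against 255 and 1364 CPM in those of WT mice. The part of neutrophil RNA in the Ccr1 values of B cells was not tested.

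Ccr9 in plasmacytoid dendritic cells, at the levels given above, had nearly equal libraries within each genotype, and TLR9-/- over WT gave −0.48 on the log2 scale (standard error 0.19, adjusted p = 0.823). The genotypes did not overlap in this 1 of 3 cell types tested, where 17.4% of all gene tests were lower in both TLR9-/- libraries. The unnamed cells that clustered with plasmacytoid dendritic cells, whose Ccr9 level was higher in every library, were left out of this test. Cxcr3 was higher in both TLR9-/- libraries in 3 of 4 cell types tested, where 19.5% of all gene tests were, with log2 fold changes of 0.32 in effector-like T cells, 0.67 in NK cells and 0.34 in plasmacytoid dendritic cells and adjusted p from 0.871. Cxcr5 in B cells was 7.68 and 34.8 CPM against 8.97 and 17.0 CPM (0.66, standard error 0.58, adjusted p = 0.938), and without TLR9-/- 1 the fold change was 1.39. The share of mature B cells, where Cxcr5 was highest, differed between the libraries as given above. Within mature B cells the log2 fold change was 0.21. Cxcr5 overlapped between genotypes in 3 of 3 cell types tested, where 16.8% of all gene tests were lower and 20.6% higher in both TLR9-/- libraries. Ccr2 in NK cells was 389 and 383 CPM against 305 and 270 CPM (0.42, standard error 0.24, adjusted p = 0.913). Cx3cr1 overlapped between genotypes in 7 of 7 cell types tested, where 16.7% of all gene tests were lower and 20.4% higher in both TLR9-/- libraries.

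The genes whose levels followed each receptor most closely over the 25 cell types were ranked by Pearson's correlation among 6256 genes, on the log2(CPM + 10) scale. The points share libraries and depth, so this is a description. For Cxcr4 these were Ccng2, which encodes a cyclin of arrested cells (r = 0.81), Glyr1 and Snapc5. For Cxcr2 they were Gm17619 (0.95), Adam8 and C5ar1, the receptor for complement C5a. For Ccr1 they were Lilrb4a (0.97), an inhibitory receptor of myeloid cells, Tarm1 and Hacd4. Ccr2 went with S100a4 (0.92), Elmo2 and Ahnak, and Cx3cr1 with Pid1 (0.94), Tmem51 and Aif1. Among the lymphoid receptors, Cxcr5 went with Bank1 (0.93), a B cell scaffold, and with Cr2 and Fcer2a, both B cell surface receptors. Ccr7 went with Gm30054 (0.88), Gm8369 and Ephx1. Cxcr3 went with Sla2 (0.92), Cd28, the T cell costimulatory receptor, and Ctsw. Ccr9 went with Pacsin1 (0.94), Klk1b27 and Sh3bgr. Pacsin1 and Klk1b27 were among the markers used to name plasmacytoid dendritic cells, as Cr2 and Fcer2a were for mature B cells and Cd28 for T cells. S100a4 and Ahnak were among those for classical monocytes, and S100a4 and Ctsw among those for effector-like T cells.

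Ligands, other receptors and the genes around them were taken as 4 lists. In whole marrow edgeR called 0 of the 10 other chemokine receptors tested, 0 of 16 chemokine ligands, 0 of 22 genes of receptor signalling and 0 of 14 genes of retention and egress. Median log2 fold changes were 0.04, 0.37, 0.00 and −0.01, beside −0.02 over all genes. Unadjusted p was under 0.05 for 2, 2, 3 and 5 of these genes, beside 17.1% of all genes. Over the 13 lineages, 1 of 73 ligand tests passed, where 0.294% of all gene tests were called. Ccl4, which encodes an inflammatory chemokine, was higher in TLR9-/- neutrophils, in a fit that called 0.927% of all genes tested. It had 51 and 20 UMIs in the TLR9-/- libraries against 2 and 3 UMIs in the WT libraries (log2 fold change 3.37, standard error 0.77, adjusted p = 0.0287). With so few WT UMIs, its passing of the filter on low counts rested on the TLR9-/- libraries. The filter thus let Ccl4 in through the genotype in which it was then called higher, which limits this call. Leaving out TLR9-/- 1, TLR9-/- 2, WT 1 or WT 2 gave Ccl4 fold changes of 1.92, 4.22, 3.76 and 2.61, with 1 mouse left in a genotype. Ccl4 did not pass by DESeq2 (adjusted p = 0.240), without marked doublets (adjusted p = 0.0564) or without cells with shared barcodes (adjusted p = 0.0608). It passed without a mitochondrial limit (adjusted p = 0.0341), with every gene with at least 1 UMI tested and with the replicate number as a block. In thinned libraries Ccl4 was not among the genes tested in neutrophils. Its highest level was in basophils or mast cells, with 5004 and 388 CPM in TLR9-/- mice against 2434 and 776 CPM in WT mice. The 12 markers of these cells summed to 2935 and 1139 CPM in mature neutrophils of TLR9-/- mice against 801 and 1760 CPM. Among them, Hdc was also a marker of mature neutrophils. The part of basophil RNA in the Ccl4 difference was not tested. The other 3 lists had 0 calls in 14, 224 and 121 tests.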

How the data were processed

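The authors aligned the reads to mm10 with Cell Ranger 3.0.1 and deposited raw UMI counts per gene and cell, 1 matrix for each of 2 TLR9-/- and 2 WT libraries; STAR and Seurat 2.3.4 are also named in the submitters' processing notes. The receptors and lists were chosen with earlier results of these data known. Cells with 200 to 10000 genes and at most 10% mitochondrial UMIs were kept, with the limit printed in the methods read as a fraction. Cells were clustered (scanpy 1.11.5, Leiden resolution 1, 2000 variable genes, 30 components) without chemokine receptors, immunoglobulin and T cell receptor variable genes and mitochondrial genes, clusters were named from fixed marker lists by their 10 leading genes, and clusters in which marked doublets exceeded 33% stayed unnamed. Doublets were marked by Scrublet's own threshold in 3 libraries (2.70% to 4.69% of cells); in WT 2 this threshold marked 0.0112%, so there the top-scoring 7.12% of cells, the rate expected from their number, were marked in its place. Types needed at least 10 cells in each library. UMIs were summed per library and type and tested with edgeR 4.0.16 (R 4.3.3; TMM, filterByExpr, quasi-likelihood test), 2 libraries against 2, with Benjamini-Hochberg adjustment over all genes tested and a threshold of 0.05. The fits were tested on simulated data. P-values measure the spread between these mice only. DESeq2 1.42.0, no filter on low counts, a replicate block, leaving out each library, thinned libraries, no mitochondrial limit, doublets left out and other clusterings were the alternatives, and leaving out cells with shared barcodes and a crossed block were added after seeing the data. A gene at 0 UMIs was given the limit of 3 UMIs. Intervals and limits cover counting error only. The named genes were the 9 receptors, the 3 genes most alike to each among genes reaching 50 CPM, and list genes with an adjusted p under 0.05 in whole marrow or a lineage, at most 5 per list.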

Additional observations from a re-analysis of the deposited data

Results flagged for a closer look

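Ccl6, which encodes a mouse chemokine that binds CCR1, differed in its genotype effect between lineages by the test of the difference itself. The log2 fold change of TLR9-/- over WT in neutrophils minus that in B cells was 2.32 (standard error 0.53, adjusted p = 0.0408, edgeR's quasi-likelihood test over the B cell, monocyte and neutrophil sums of the 4 libraries). Neutrophils had 609 and 318 CPM of Ccl6 in TLR9-/- mice against 272 and 449 CPM in WT mice, where the genotypes overlapped. B cells had traces, 0.838 and 1.26 CPM from 6 and 7 UMIs against 1.91 and 5.50 CPM from 17 and 58 UMIs. The 22 neutrophil markers summed to 377 and 407 CPM in B cells of TLR9-/- mice against 255 and 1364 CPM in those of WT mice, so that WT 2 was highest in both, and the part of neutrophil RNA in the difference was not tested. Without TLR9-/- 1 the difference was 1.51 (adjusted p = 0.164) and without WT 2 it was 1.71 (adjusted p = 0.442), and it did not pass by DESeq2 (adjusted p = 0.469), without marked doublets (adjusted p = 0.110) or in thinned libraries (adjusted p = 0.175).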

How the results depend on the processing

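Of 62 fold changes recomputed, 50 kept their direction in every alternative, and of 29 for Cxcr4 24 did. In whole marrow DESeq2 called 1 receptor (Ccr2, 0.73, adjusted p = 0.0271; 3.87% of all genes called). Testing every gene with at least 1 UMI called 1 in lineages (Ccr7 in T cells, 1.37), 3 in stages (Cxcr4 in cycling pre-B cells, mature B cells and classical monocytes, −0.69, −1.12 and −1.01) and 1 difference between lineages (Cxcr4, neutrophils minus B cells, 0.68), while 0.783%, 0.622% and 0.502% of all gene tests were called. The causes were not tested. Only 5 of the 27 genes most alike in pattern were shared when Spearman's correlation was used. Leaving out 1 library leaves 1 mouse in a genotype, so for the receptors only fold changes are given. Without TLR9-/- 1 these were 1.39 for Cxcr5 and 1.12 for Ccr7 in B cells and 1.85 for Ccr7 in T cells. Without WT 2 they were −2.48 for Ccr7 in conventional dendritic cells and −1.17 for Cxcr4 in erythroid cells.

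Leaving out 1 library turned the direction of 12 fold changes. The ranges were −0.14 to 1.45 for Cxcr2 and −0.010 to 1.10 for Cxcr3 in whole marrow, −0.017 to 0.064 for Ccr2 in monocytes, −0.093 to 1.12 for Ccr7 in B cells, −1.57 to 0.094 for Ccr9 in T cells, −0.75 to 1.39 for Cxcr5 in B cells and −0.41 to 0.64 for Cxcr5 in mature B cells. For Cxcr4 they were −0.84 to 0.16 in effector-like T cells, −0.22 to 0.0079 in neutrophils, −0.60 to 0.68 in neutrophil precursors, −0.17 to 0.056 in non-cycling immature neutrophils and −0.38 to 0.063 in mature neutrophils.

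The labels do not say that a library number marks a shared experiment. Deviations of same-numbered libraries correlated at 0.32 over 14194 genes in whole marrow and between −0.15 (mature neutrophils) and 0.48 (erythroid cells) over all 32 fits. In mature neutrophils a crossed block called 0 receptors, as did the fit without a block, which called 0.209% of all genes there. With the replicate number as a block, 1 receptor was called in whole marrow (Ccr2, 0.73), 3 in lineages (Ccr7 in T cells, 1.20, Cxcr2 in neutrophils, 0.65, and Cxcr4 in erythroid cells, −0.69) and 6 in stages, all Cxcr4 (cycling pre-B, mature B, cycling, classical and nonclassical monocytes and granulocyte-committed progenitors, adjusted p = 0.00130, 0.0413, 0.0118, 0.0423, 0.0134 and 0.0215), while 8.21%, 1.37% and 1.53% of all gene tests were called.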

Other observations

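Other genes of the lists had their highest levels in single cell types. Cxcl12, the ligand of CXCR4, was 1934 and 3231 CPM in mesenchymal cells of the TLR9-/- libraries and 2470 and 2241 CPM in those of the WT libraries, from 13 to 18 cells each. It was among the markers used to name mesenchymal cells, so a high level there follows from the naming. Cxcr6, a receptor of tissue-resident lymphocytes, was highest in effector-like T cells, with 324 and 277 CPM against 173 and 202 CPM. Ccr10 was highest in plasma cells (67.4 CPM on average) and Ackr1, an atypical receptor that binds chemokines without signalling, in erythroid cells (72.9 CPM).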
